A study of Prunus dulcis and Malus domestica and Olea europaea with 8 samples.

Results

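The miRNA families that act on auxin signaling were followed in 8 plant-based foods. They were chosen by name, as every miRNA gene of the deposited count table that belongs to miR160, miR167, miR390, miR391 or miR393. The rule found 12 of the 209 miRNA genes annotated in peach: 4 of miR160, 4 of miR167, 2 of miR390 and 2 of miR393. The table held no gene of miR391. Of the 12 genes, 11 had at least 10 counts in a food, as did 114 of all 209 genes. The gene mir-160 on chromosome G6 had 0 counts in all 8 libraries.

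Auxin is the plant hormone that controls growth, organ formation and the set and swelling of fruits. It binds receptors of the TIR1/AFB group, which are F-box proteins, and the signal is then carried out by auxin response factors (ARFs), transcription factors that switch auxin genes on or off. As known from Arabidopsis, miR393 cleaves the mRNAs of the receptors, miR160 those of the repressor-type factors ARF10, ARF16 and ARF17, and miR167 those of the activator-type factors ARF6 and ARF8, which act in flowers and ovules. miR390 cuts the non-coding TAS3 transcript, which then yields small RNAs against ARF2, ARF3 and ARF4.

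Small RNA-seq was performed with 1 library for each food: almond (Prunus dulcis), apple (Malus domestica), olive (Olea europaea), orange (Citrus sinensis), pear (Pyrus communis), spinach (Spinacia oleracea), tomato (Solanum lycopersicum) and walnut (Juglans regia). RNA came from the edible portion of untreated, uncooked food, with an input per the labels of 0.5 g for the nuts (almond and walnut) and 0.1 g for the others. The study's methods instead give walnut a smaller mass than the fruits and spinach. Those methods do not list almond among the sequenced foods. The sources used here do not give cultivar, ripeness or the number of plants, so a library stands for 1 purchased sample and not for a species. The libraries held between 39249 (walnut) and 212021 (apple) counts on all miRNA genes, and the median was 67321.

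All reads were aligned to peach miRNA genes. Each value is therefore a level of reads that fit a peach copy, and a family member that differs more in sequence in a distant plant would not be counted. Levels are given as a share, in percent, of what all miRNA genes of a library held. Ratios between foods were also computed under 4 other scalings of the libraries, which were edgeR TMM, DESeq2 size factors by the default and the poscounts method, and the normalized reads that were deposited. Without further samples of a food there was no spread between samples and no test between single foods, and the 95% intervals given in brackets (Clopper-Pearson for shares, exact binomial for ratios) span no more than counting error. PCR copies could not be removed, as the reads had no molecular identifiers.

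The auxin pathway genes lay on 6 peach chromosomes (Prunus persica NCBIv2), and the annotation places each in a miRNA gene of a single exon. MIR167a (ENSRNA049997214, G8 from 20761711 to 20761846) and MIR167b (ENSRNA049997210, G8 from 20759419 to 20759555) were neighbors, 2156 bp apart on the - strand. MIR167c (ENSRNA049997046) was on G6 from 29520818 to 29520928 and MIR167d (ENSRNA049995965) on G1 from 1563673 to 1563777, both on the + strand. MIR160a (ENSRNA049996698) was on G4 from 5325283 to 5325442 on the + strand and MIR160b (ENSRNA049996353) on G2 from 24579519 to 24579663 on the - strand. Another gene of that family, named mir-160 (ENSRNA050003348), was on G3 from 20514403 to 20514490 on the - strand, and the gene with no count (ENSRNA050003742) on G6 from 23766797 to 23766882 on the + strand. The miR390 genes were ppe-MIR390 (ENSRNA049996971, G6 from 3479635 to 3479727, - strand) and MIR390 (ENSRNA050003783, G6 from 26415642 to 26415739, + strand). MIR393a (ENSRNA049996366, + strand) spanned 26224921 to 26225015 of G2 and MIR393b (ENSRNA049996390, - strand) 28654018 to 28654122 of the same chromosome. Apart from the MIR167a and MIR167b pair, every gene was at least 159165 bp from its nearest annotated miRNA gene. Copies of a family can have near-identical mature sequences, and the sources do not say how a read that fits several copies was counted, so the split of a family over its copies is less certain than the family sum.

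Between 7 (apple) and 10 (olive, orange, pear and tomato) of the 12 genes had at least 1 count in a library. Of all 209 genes, between 68 (walnut) and 123 (almond) had a count, with 97 in apple. After thinning every library to 39249 counts, 6.44 auxin pathway genes were expected in apple, 9.10 in tomato and between 7.99 and 9.95 in the others. Of all genes, between 64.5 (spinach) and 117 (almond) were then expected, with 66.1 in apple. MIR160b, MIR167b, MIR167c and MIR167d were counted in all 8 foods. These are 4 of 12 auxin pathway genes, against 9.09% of all 209 genes of the table. At the other end, mir-160 on G3 was counted in olive, orange and walnut only, with 5, 7 and 21 reads. No auxin pathway gene was counted in 1 food only. How many of all 209 genes were was not determined, so this is not read as a trait of these families.

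Taken as a sum, the 4 families held 39.5% of the walnut counts (39.0 to 40.0), 17.7% in almond (17.4 to 18.0) and 9.0% in spinach (8.76 to 9.24). In orange they held 3.41% (3.27 to 3.55) and in olive 1.43% (1.34 to 1.52). The remaining foods were below 1%, with 0.614% in apple, 0.519% in pear and 0.186% in tomato. The share thus differed 212-fold between walnut and tomato (109-fold to 1036-fold under the other scalings), and neighbors in this order differed by more than counting error at each step. Some steps turned with the scaling. The deposited normalized reads put almond above walnut, and pear (0.107 times the median food) above apple (0.0300). DESeq2 poscounts put apple (0.714) above olive (0.666). The families did not share an order of foods. miR167 was highest in walnut, almond and spinach, miR390 in orange, miR393 in olive and apple, and miR160 in walnut and pear. In the deposited normalized reads the second place changed, to orange for miR393 and to almond for miR160 and miR390. For miR167 almond there took the first place from walnut, at 251 against 105 times the median food.

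**Figure D1:**
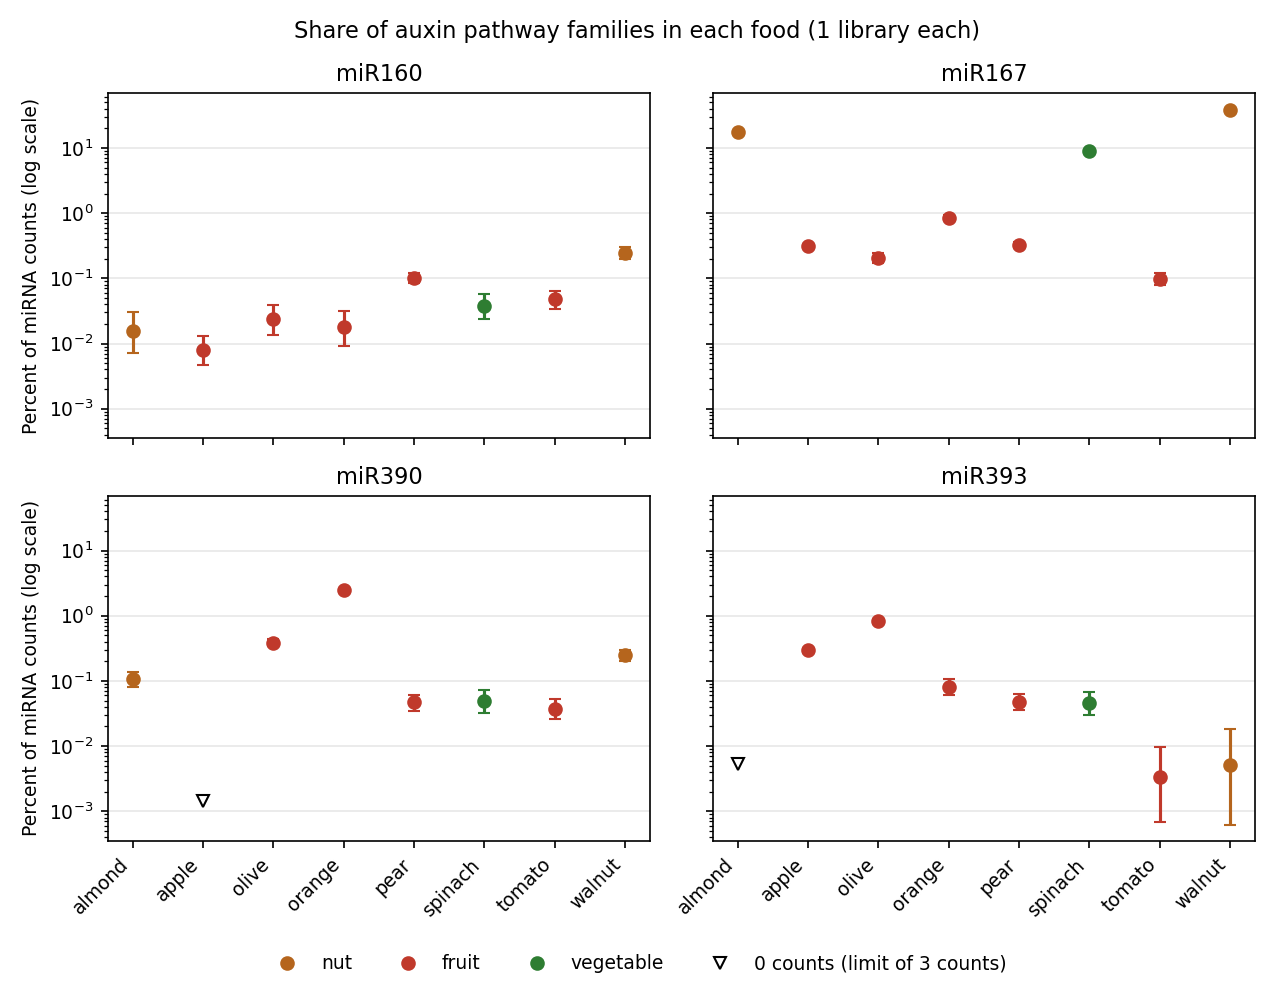
Share of the miR160, miR167, miR390 and miR393 families in each of 8 food libraries, as percent of all miRNA counts on a log scale. Points are single libraries colored by food class as in the labels, bars are 95% Clopper-Pearson intervals, and open triangles mark the limit of 3 counts where no read was counted. miR167 reached 39.0% in walnut and 17.6% in almond, whereas miR393 had 2 counts in walnut and 0 in almond.

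miR167 carried most of these reads, with 89.4% of the 35813 auxin pathway counts of the 8 libraries. Its raw counts were 15294 in walnut, 10024 in almond, 4870 in spinach, 661 in apple, 575 in orange, 352 in pear, 138 in olive and 89 in tomato. As shares of the library these were 39.0% in walnut (38.5 to 39.5), 17.6% in almond (17.3 to 17.9) and 8.87% in spinach (8.63 to 9.11), and between 0.0982% (tomato) and 0.858% (orange) in the others. The nuts and spinach stood well above the other 5 foods, with a 10.3-fold step (9.48 to 11.3) from spinach down to orange. This step was between 3.95-fold (deposited normalized reads) and 7.67-fold under the other scalings. Pear (0.323%) and apple (0.312%) were not separated as shares, at a ratio of 1.04 (0.908 to 1.18), but their order depends on the scaling, as the ratio was between 0.500 and 0.727 with edgeR TMM and the DESeq2 methods and 4.37 in the deposited normalized reads. Among the 88 miRNA families of the table, miR167 ranked 1st in almond and in walnut, 3rd in spinach and between 11th and 14th in the other foods.

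The copy that took the miR167 reads differed from food to food. In walnut 83.3% (82.7 to 83.8) were on MIR167d, which with 12733 counts was the highest of all miRNA genes there, and 15.9% (15.3 to 16.5) on MIR167b. Almond divided them between MIR167c, with 5769 counts or 57.6% (56.6 to 58.5), and MIR167d, with 4189 counts or 41.8% (40.8 to 42.8). Spinach had 89.7% (88.8 to 90.5) on MIR167c and only 13 counts on MIR167d. The foods with the highest miR167 levels thus did not share a leading copy.

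Among the foods with fewer miR167 reads, MIR167d led in apple with 73.1% (69.5 to 76.4) and in olive with 58.0% (49.3 to 66.3). MIR167b led in pear with 62.8% (57.5 to 67.8) and in tomato with 51.7% (40.8 to 62.4). Orange was the only food led by MIR167a, with 295 counts or 51.3% (47.1 to 55.5), where the other 7 libraries had between 0 and 28 counts of that gene. Apple and pear, which are close relatives, hence differed in the leading copy although their miR167 shares were not separated by counting error.

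**Figure D2:**
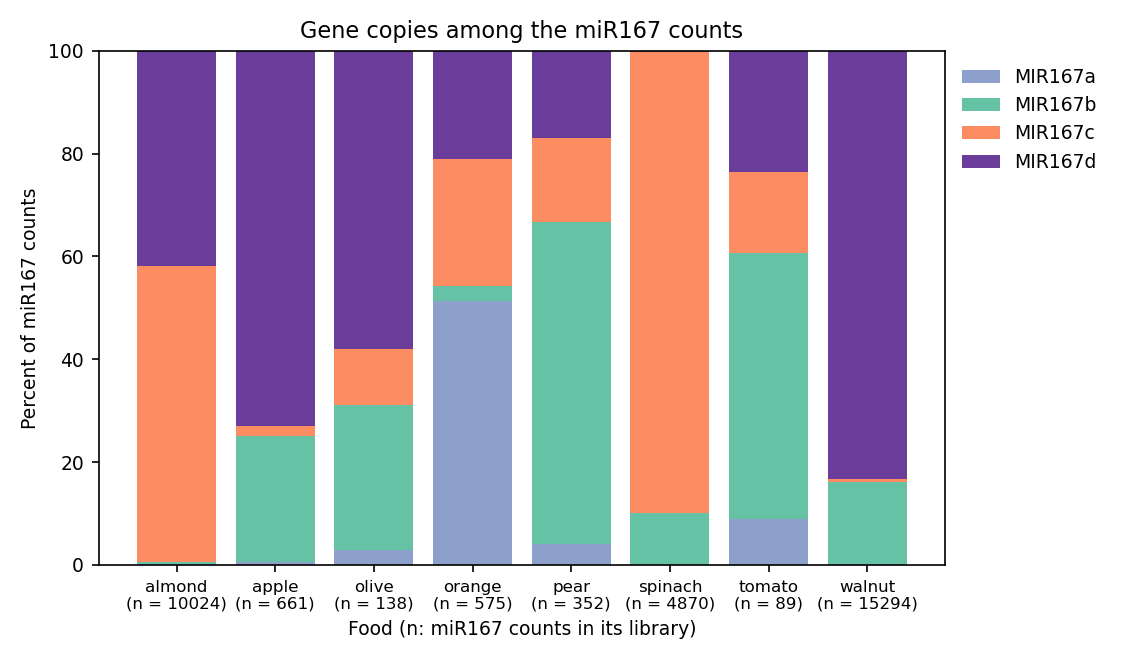
Percent of the miR167 counts of each library that fell on the peach genes MIR167a, MIR167b, MIR167c and MIR167d, stacked to 100%, with the number of miR167 counts under each food. MIR167d held 83.3% in walnut, MIR167c 89.7% in spinach and MIR167a 51.3% in orange.

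MIR167a and MIR167b, the neighbors on G8, did not keep a fixed ratio. Within a library this ratio does not depend on how libraries are scaled. Walnut had 87.0 MIR167b reads for each MIR167a read (60.02 to 131), apple 40.5 (15.5 to 150) and pear 15.8 (9.21 to 29.3). Olive had 9.75 (3.52 to 37.6), tomato 5.75 (2.69 to 14.1) and almond 5.0 (2.59 to 10.6). In spinach MIR167b was at least 163-fold higher, as MIR167a had no count. In orange the order was turned, at 0.0576 (0.0331 to 0.0939). The ratio of MIR167d to MIR167c ranged further, from 0.00298 in spinach (0.00158 to 0.00509) to 130 in walnut (107 to 160). It was 0.726 in almond (0.698 to 0.756), while in orange, pear and tomato its interval included 1.

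Some low counts stood beside a library that was very high for the same gene. The 13 counts of MIR167d in spinach and the 21 in tomato were 0.102% and 0.165% of the 12733 counts in walnut, and the 12 counts of MIR167c in apple were 0.208% of the 5769 in almond. Whether such counts were carried over between libraries was not tested.

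miR160, which acts on the repressor-type ARFs, was low in every food. The raw counts were 111 in pear, 97 in walnut, 43 in tomato, 21 in spinach, 17 in apple, 16 in olive, 12 in orange and 9 in almond. The share was highest in walnut at 0.247% (0.200 to 0.301), followed by pear at 0.102% (0.0838 to 0.123) and tomato at 0.0474% (0.0343 to 0.0639), and lowest in apple at 0.00802% (0.00467 to 0.0128). Walnut exceeded pear 2.43-fold (1.83 to 3.22; 1.21-fold to 6.69-fold under the other scalings) and pear exceeded tomato 2.15-fold (1.497 to 3.13), or up to 3.81-fold in the deposited normalized reads. From tomato down to apple, each food could not be separated from the next. miR160 ranked between 13th (walnut) and 36th (almond) of the families.

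Pear and apple differed more in miR160 than in miR167: the miR160 share was 12.7 times as high in pear (7.58 to 22.6). Under the other scalings this ratio was between 6.13 and 53.6, with pear the higher one in each. MIR160b made up 97 of the 111 pear counts and all 17 apple counts. Walnut had counts on 3 copies, with 56 of MIR160a, 21 of mir-160 on G3 and 20 of MIR160b. In the other foods the counts per copy were between 0 and 22.

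The ratio of miR167 to miR160 sets a miRNA of activator-type ARFs against one of repressor-type ARFs within the same library. It was 1114 in almond (586 to 2436), 232 in spinach (152 to 375) and 158 in walnut (129 to 195). Orange had 47.9 (27.2 to 93.3), apple 38.9 (24.1 to 67.2) and olive 8.63 (5.13 to 15.5). Pear, at 3.17 (2.55 to 3.96), and tomato, at 2.07 (1.42 to 3.05), were lowest. miR167 exceeded miR160 in all 8 libraries. The 3 foods richest in miR167 also had the highest ratios, which is no separate result, as miR167 is the numerator. Its share varied 397-fold between foods, against 30.8-fold for miR160. Almond, with only 9 miR160 reads, exceeded walnut in this ratio, although its miR167 share was lower.

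**Figure D3:**
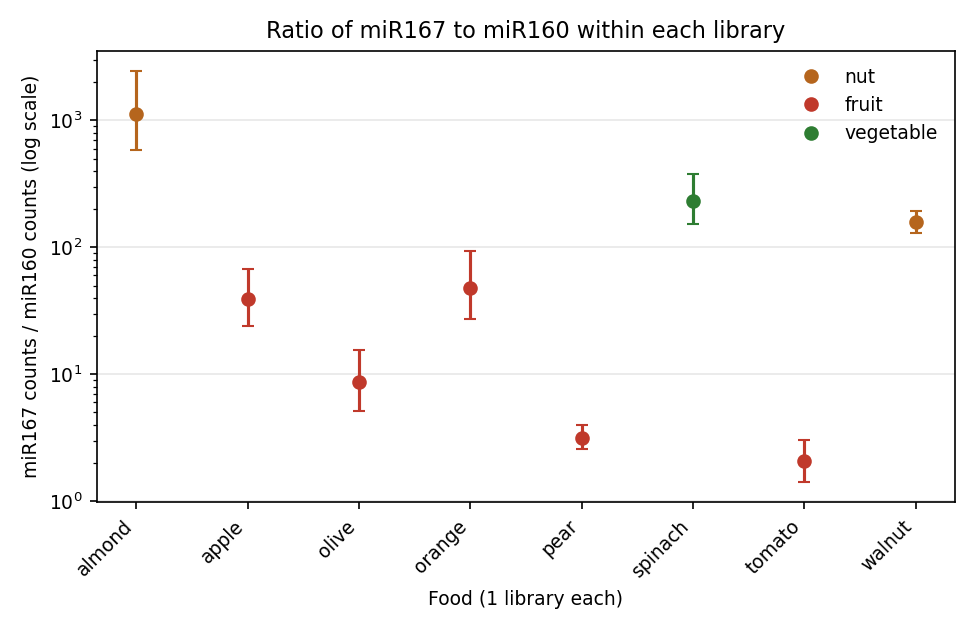
Ratio of miR167 counts to miR160 counts within each food library on a log scale, with 95% exact binomial intervals, colored by food class. The ratio ran from 2.07 in tomato to 1114 in almond, and almond, spinach and walnut lay above the other 5 foods.

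miR390, the trigger of TAS3 small RNAs, had 1642 counts in orange, 260 in olive, 97 in walnut, 60 in almond, 51 in pear, 34 in tomato, 27 in spinach and 0 in apple. The share was 2.45% in orange (2.33 to 2.57), 0.384% in olive (0.339 to 0.434), 0.247% in walnut (0.200 to 0.301) and 0.105% in almond (0.0803 to 0.135). Orange exceeded olive, the next food, 6.37-fold (5.59 to 7.29), and between 2.89-fold and 5.30-fold under the other scalings. In the deposited normalized reads almond was the next food instead, at 4.24 times the median food, against 12.1 in orange and 2.63 in olive. Spinach (0.0492%), pear (0.0468%) and tomato (0.0375%) followed, and the step from each to the next was within counting error. The 0 counts in apple, the deepest library, allow a share of up to 0.00141%. In orange, miR390 was the 7th highest family and held 71.9% (70.0 to 73.8) of the auxin pathway counts.

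The miR390 reads of the foods fell on different genes. Orange had 1638 of its reads on MIR390 and 4 on ppe-MIR390, a ratio of 410 (160 to 1505). MIR390 also led in pear, with 46 against 5 counts, in almond, with 49 against 11, and in olive, with 176 against 84. Tomato had 21 against 13, a ratio of 1.62 whose interval included 1 (0.772 to 3.51). Walnut and spinach had the reverse, with all 97 and all 27 reads on ppe-MIR390 and 0 on MIR390. For MIR390 these zeros allow shares of up to 0.00764% in walnut and 0.00546% in spinach.

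miR393, the regulator of the auxin receptors, had 623 counts in apple, 554 in olive, 54 in orange, 52 in pear, 25 in spinach, 3 in tomato, 2 in walnut and 0 in almond. The share was highest in olive at 0.819% (0.753 to 0.890), 2.79 times that of apple (2.48 to 3.13), which had 0.294% (0.271 to 0.318). Under the other scalings olive was between 1.11 and 29.3 times apple. Orange followed with 0.0806% (0.0605 to 0.105). Pear (0.0477%) and spinach (0.0455%) could not be separated. The nuts and tomato were lowest, with 0.00510% in walnut (0.000617 to 0.0184), 0.00331% in tomato (0.000682 to 0.00967) and a limit of 0.00526% in almond. miR393 was the 7th highest family in olive, where it held 57.2% (54.0 to 60.4) of the auxin pathway reads, and the 28th of 31 families detected in walnut.

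MIR393b carried all 554 olive reads and 478 of the 623 apple reads. In olive it was at least 185-fold higher than MIR393a, which had no count there. In apple the ratio of MIR393b to MIR393a was 3.30 (2.73 to 3.998) and in orange 8.0 (3.42 to 22.9). Pear had the opposite order, with 39 reads of MIR393a and 13 of MIR393b, a ratio of 0.333 (0.163 to 0.638). Spinach had 12 and 13 reads.

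Set against each other within a library, miR167 and miR393 ranged widely. There were 7647 miR167 reads per miR393 read in walnut, where the 2 miR393 reads gave an interval from 2117 to 63149, and at least 3341 in almond. The ratio was 195 in spinach (132 to 301), 29.7 in tomato (9.83 to 147), 10.6 in orange (8.05 to 14.3) and 6.77 in pear (5.05 to 9.24). Apple had nearly equal counts, at 1.06 (0.9496 to 1.19), and in olive miR393 was higher, at 0.249 (0.205 to 0.301). Olive was the only food in which miR393 exceeded miR167.

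A fixed rule of size was used to see whether single genes were led by 1 food: a highest share at least 10 times the next, with counts under 3 set to 3. None of the 11 auxin pathway genes with at least 10 counts met it, against 24.6% of the 114 such genes of the table. MIR390 came nearest, at 9.39-fold in orange, followed by MIR167b at 6.97-fold in walnut, MIR167a at 6.17-fold in orange, MIR160a at 5.88-fold and mir-160 on G3 at 5.12-fold in walnut. As shares, MIR167c was high in a pair of foods, with almond 1.27-fold above spinach, while the other 6 foods had between 12 and 142 counts of it. The count depends on the rule, since 5 of the 11 genes met a 5-fold limit, as did 48 of the 114. The rule was applied to shares only, and the result depends on the scaling. In the deposited normalized reads, MIR167c had 5506 in almond and 203 in spinach, wider than 10-fold. MIR393b had 75.7 in olive and 4.78 in orange, and MIR167b 635 in walnut and 52.5 in almond, also wider. MIR390 had 163 in orange and 46.8 in almond, which is narrower. How many genes of the table meet the rule there was not determined.

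Almond, apple and pear belong to the Rosaceae, as does peach, and were compared with the other foods, since reads of a relative and of a distant plant may fit the reference unequally. The mean share of the summed families was 6.28% in the 3 Rosaceae and 10.7% in the 5 other foods, and the groups overlapped, from 0.519% to 17.7% and from 0.186% to 39.5%. By an exact two-sided permutation test p was 0.786. For miR160, miR167, miR390 and miR393 the exact permutation p was 0.750, 0.839, 0.482 and 0.821, and every Rosaceae mean was the lower one. The smallest p that 56 assignments of the labels allow is 0.0179. Almond alone made up most of the Rosaceae mean, with a miR167 share 56.4 times that of apple (52.1 to 61.1), a ratio that ran from 9.16 (DESeq2 poscounts) to 3489 (deposited normalized reads) under the other scalings. Without walnut the direction turned for the sum (2.77 percentage points higher in Rosaceae), for miR167 (3.57) and for miR160 (0.0101), and without olive for miR393 (0.0802).

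The labels set almond and walnut apart as nuts. The mean miR167 share was 28.3% in the 2 nuts and 1.78% in the 6 other foods, and both nuts (17.6% and 39.0%) lay above all 6, of which spinach was highest at 8.87%. Without spinach the mean of the others was 0.359%, and without walnut that of the nuts was almond's 17.6%. The exact two-sided permutation p was 0.0357, the smallest that 28 assignments can give, and 0.179 after Benjamini-Hochberg adjustment over the 10 tests of both contrasts. An adjusted p under 0.05 would have needed most of the 10 tests at 0.0357 or lower. The design therefore all but fixed that the adjusted p did not pass, and no conclusion is drawn from it. For the sum of the families the values were 28.6% and 2.53%, with the same p and adjusted p. miR393 had a mean of 0.00255% in the nuts and 0.215% in the others (exact permutation p = 0.321), and tomato, at 0.00331%, was near the nuts. Without olive the mean of the others was 0.0942%. For miR160 and miR390 the p was 0.214 and 0.786. Being a nut cannot be told apart here from being a seed and from a different input. The labels give both nuts a larger input, whereas the study's methods give walnut a smaller one than the other foods they sequenced.

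The deposited normalized reads scale the libraries differently from shares. Counts and normalized reads differed by a factor of 1.05 in almond and of up to 241.04 in apple. This factor varied 230-fold between libraries, while the totals varied 5.40-fold. DESeq2 run on this count table gave factors from 0.535 to 1.60, a 2.99-fold range, and so did not return the deposited ones. In normalized reads, the summed families stood at 53.5 times the median food in almond and 22.5 times in walnut, so that almond passed walnut. As shares these values were 7.32 and 16.3. Under the shares, edgeR TMM, both DESeq2 methods and the deposited factors alike, the nuts were the 2 highest foods, followed by spinach and then orange, and tomato was the lowest. A large share of other genes also lowers the shares given here. The 3 highest genes outside these families held 79.1% of the apple counts and 70.1% of the orange counts, but 36.2% in walnut and 36.6% in almond. The ratios within a library do not change with either.

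**Figure D4:**
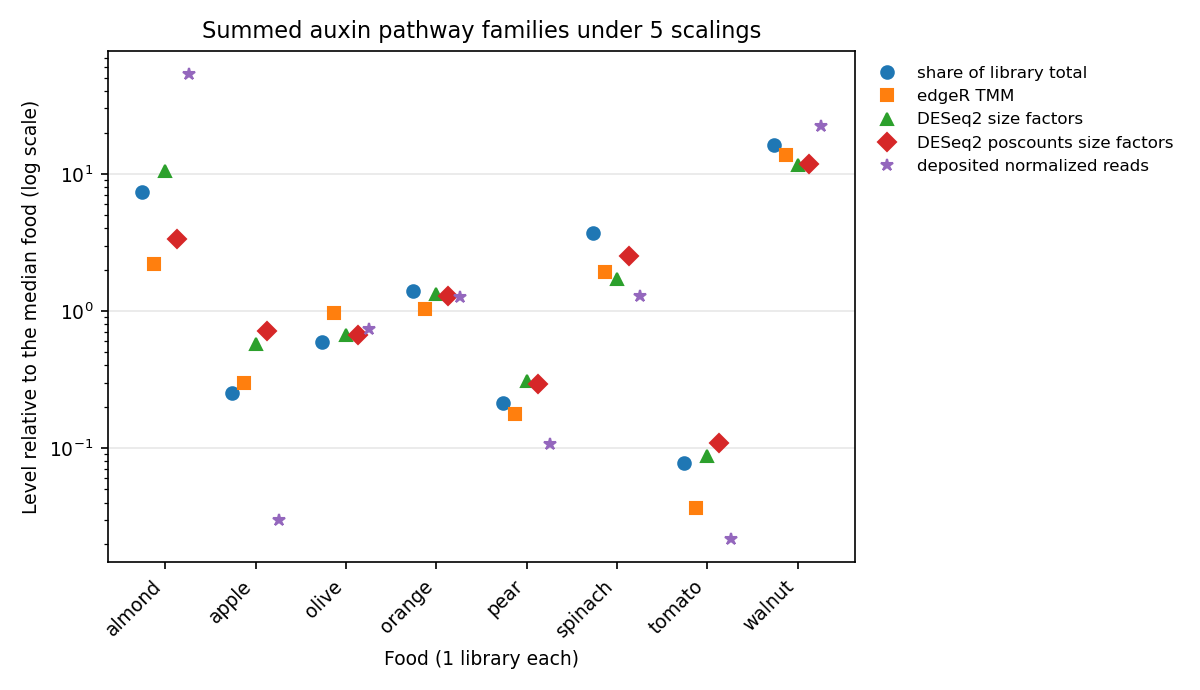
Summed level of the auxin pathway families relative to the median of the 8 foods on a log scale, under 5 scalings of the libraries. Each point is 1 library under 1 scaling. Almond ranged from 2.22 (edgeR TMM) to 53.5 (deposited normalized reads) and apple from 0.0300 to 0.714, whereas orange stayed between 1.04 and 1.41.

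The genes outside these families with the most similar pattern were sought among the 103 that had at least 10 counts in a food, by Pearson's r of log10 shares (0.5 counts added) over the 8 foods. These correlations describe 8 points that share their denominators. For MIR167d the nearest were MIR171a (r = 0.785, Spearman's rho = 0.690), the MIR159 gene ENSRNA050003181 (r = 0.749, rho = 0.571) and MIR171f (r = 0.737, rho = 0.515). miR171 acts on GRAS transcription factors, and MIR171a had 645 counts in walnut and 185 in orange. For MIR390 they were MIR394b (r = 0.858, rho = 0.903), MIR171d (r = 0.798, rho = 0.854) and MIR395n (r = 0.776, rho = 0.884). MIR171d had its highest count in almond (202, with 39 in orange) and MIR395n in olive (52, with 5 in orange). All 3 had 0 counts in walnut and 0 to 2 in apple and spinach, where MIR390 had 0. Their likeness to MIR390 thus rests in part on libraries with few or no counts. For MIR393b the nearest was MIR168, of the family that acts on ARGONAUTE1 (r = 0.864, rho = 0.922), with 9484 counts in apple and 7930 in olive, ahead of the MIR159 gene ENSRNA050003605 (r = 0.673, rho = 0.620) and MIR319a (r = 0.583, rho = 0.620). For MIR160b no like pattern can be read. Its nearest genes were MIR2111c, with 13 counts in pear and 0 in the other 7 foods, MIR6282, with 16 in pear, 2 in 1 other food and 0 elsewhere, and MIR395f, with 54 in pear, so that their likeness rests on the pear library.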

How the data were processed

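Total RNA was isolated from 1 sample of each food, and small RNA libraries were made and sequenced once per food. Per the study's methods, which do not list almond, adapters were removed with skewer. The authors placed reads 15 to 30 bases long with ShortStack on the Prunus persica NCBIv2 genome with miRBase 22 miRNAs. Up to 2 mismatches in the seed were allowed. The values of the deposited raw table are counts per gene, made by the authors with HTSeq by strand and not normalized. The deposited normalized table holds a signal, those counts divided by 1 factor per library, stated to come from DESeq2 but not returned by DESeq2 run on this table. HTSeq and DESeq2 are also named in the submitters' processing notes, and the sources used here give no versions of these tools. Columns of unrelated samples: 0.

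Counts were summed by family and divided by the library total (39249 to 212021 counts). Intervals have a 95% level. A count of 0 was read as at most 3 counts, and limits and intervals cover counting error only. Contrasts used exact two-sided permutation tests over libraries, adjusted by Benjamini-Hochberg. Every auxin pathway gene is named, with values in all 8 foods by family or gene, and the 3 nearest genes are named for the gene of highest summed share in each family. Alternatives were edgeR TMM, DESeq2 size factors (default and poscounts), the deposited factors, other count minimums and denominators, a log10 scale and leaving out each library. The scalings of further ratios between single foods were chosen after seeing the data. Members and lists were chosen with earlier results of these data known. Calculations were tested on simulated data. Software was R 4.3.3, edgeR 4.0.16, DESeq2 1.42.0, Python 3.11.15 with scipy 1.17.1, numpy 2.4.6, matplotlib 3.10.9 and pandas 2.3.3.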

Additional observations from a re-analysis of the deposited data

Results flagged for a closer look

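For 17 measures over the 8 foods, the gap between the highest or lowest library and its neighbor was set against the whole range (Dixon's test, 95% level). In 12 of them the highest library stood apart. The measures overlap, since the sum holds the families and each family holds its genes. The rule was not applied to the other genes of the table, so 12 of 17 cannot be set against them. Chance alone sets about 1 in 20 groups of normal values apart, the foods are different plants, and the shares are skewed, so that the rule only marks libraries to look at. Walnut stood apart for miR160 (0.247%), miR167 (39.0%) and the sum of the families (39.5%), and among single genes for MIR160a (0.143%), mir-160 on G3 (0.0535%), MIR167b (6.20%) and MIR167d (32.4%). Orange stood apart for miR390 (2.45%), MIR390 (2.44%) and MIR167a (0.440%). Olive stood apart for miR393 and for MIR393b, both at 0.819%, since MIR393b held all its miR393 reads.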

How the results depend on the processing

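With 1 library per food, no value here has a check by a second sample, and low counts limit miR160 in almond, orange, olive and apple and miR393 in tomato and walnut. No paired analysis was possible because each food had 1 library.

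With the deposited normalized reads, the ratio of walnut to almond turned from 2.22 to 0.417 for miR167 and from 2.23 to 0.419 for the sum. TMM gave 6.11 and 6.15, DESeq2 size factors 1.11 for both, and the poscounts method 3.50 and 3.52. The ratio of walnut to pear for miR160 was 1.21 and 1.29 with the DESeq2 methods and 6.69 with the deposited reads. Orange to olive for miR390 was 2.89 with TMM, 5.30 and 5.17 with the DESeq2 methods and 4.604 with the deposited reads. Olive to apple for miR393 was 3.83, 1.41, 1.11 and 29.3 in the same settings. In an alternative chosen after seeing the data, the deposited reads turned the ratio of pear to almond for miR160 from 6.45 to 0.440 and of apple to orange for miR393 from 3.65 to 0.480. Relative to the median food, the deposited reads gave a sum of 53.5 in almond, 22.5 in walnut, 1.28 in spinach, 1.26 in orange, 0.735 in olive, 0.107 in pear, 0.0300 in apple and 0.0217 in tomato. Of the 28 pairs of foods, between 19 (miR160, deposited reads) and 28 kept their order.

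Without the highest gene outside these families in each library, the summed share was 20.4% in almond, 0.965% in apple, 1.86% in olive, 6.03% in orange, 0.957% in pear, 14.5% in spinach, 0.258% in tomato and 53.9% in walnut. Without the 3 highest it was 27.9%, 2.94%, 3.01%, 11.4%, 1.44%, 27.0%, 0.453% and 61.9% in the same order of foods. Without the highest miR167 copy of each library, the ratio of miR167 to miR160 was 473 in almond, 10.5 in apple, 3.63 in olive, 23.3 in orange, 1.18 in pear, 23.9 in spinach, 1.00 in tomato and 26.4 in walnut. With at least 10 counts, 6 auxin pathway genes were detected in olive (45 of all genes) and 6 in orange (53 of all genes). At that minimum, 10 genes of the table, 3 of them auxin pathway genes, were detected in all 8 foods. With a 5-fold limit on shares, 5 auxin pathway genes and 48 of all genes were led by 1 food, and 18 of all genes with 20-fold.

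None of the 10 tests passed an adjusted p of 0.05, 2 had an unadjusted p under 0.05, and none of 100 alternative tests passed (lowest adjusted p 0.119). That says nothing of stability, since the nuts tests allow no p under 0.0357, and under 0.143 with 7 assignments when a nut is left out. On the log10 scale the nuts were higher in miR390 by 0.49, and by 7.45 in deposited normalized reads. In those reads the Rosaceae were higher by 2335 for miR167 and by 2293 for the sum. Leaving out 1 library at a time, Rosaceae minus others ran from -0.0630 to 0.0101 percentage points for miR160, from -9.48 to 3.57 for miR167, from -0.167 to 0.0802 for miR393 and from -10.1 to 2.77 for the sum. Nuts minus others ran from -0.0237 (without walnut) to 0.208 for miR160 and from -0.417 to 0.0726 (without orange) for miR390, and stayed between 15.8 and 37.2 for miR167.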
